A study of Mus musculus with 20 samples.

Results

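The 10 genes described here, Hdac4, Gja1, Twf1, Cdk9, Tagln2, Tmsb4x, G6pdx, Pgd, Slc8a1 and Cnn3, are listed in earlier literature as direct targets of miR-1 in muscle or heart. They were taken by name from the 54532 genes of the count tables. The rule itself used no measured value, although the list was drawn up with earlier results of these data known. In these libraries none of the 10 passed the test between plantaris muscles that received a miR-1 mimic and those that received a control virus, after either surgery. The fitted level was lower with the mimic for 4 of 10 after mechanical overload (MOV) and for 4 of 10 after sham surgery, counts that ran from 2 to 6 and from 2 to 7 under the alternative fits. Between surgeries Cdk9 was higher in every MOV control library than in any sham control library, as were 2.3% of all genes, and its adjusted p also missed the threshold.

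All libraries came from the plantaris of male C57BL/6J mice aged 5 months, collected 10 days after bilateral sham surgery or bilateral MOV, an operation that removes part of the synergist muscles so that the plantaris takes over their load. During surgery, 50 µL of lentivirus was injected into each plantaris, a control virus on the left and a virus that expresses a miR-1a-3p mimic on the right, both from a CMV promoter with TurboGFP as reporter, and the groups are called MOV mimic, MOV control, sham mimic and sham control. Each group held 5 libraries of 1 muscle each, with totals between 12036360 and 23056525 counts, and MOV mimic replicate 4, which had the lowest total, held 15561 genes with a count against 18768 to 22300 in the other libraries. The raw counts of the 10 genes ran from 26 to 20270 per library. Mature miR-1 is not a feature of these counts, every muscle kept its own miR-1, and the control muscle of each mouse lay in the leg opposite to the mimic. The CMV promoter is not restricted to muscle fibres, and a whole muscle also holds fibroblasts, leukocytes and vessels, so that a smaller number of cells of a type and less RNA per cell cannot be told apart.

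MicroRNAs guide an Argonaute complex to messenger RNAs, mostly by pairing of their seed, the bases after the first at the 5′ end, with a complementary stretch in the 3′ UTR. This pairing usually shortens the life of the transcript and lowers its translation, and loss at the protein level can exceed that at the RNA level. miR-1 is made in heart and skeletal muscle, where it accumulates as fibres mature, and miR-206, its relative in skeletal muscle, shares its seed.

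The sequences that carry the question of direct targeting are the seed and its matches in the 3′ UTRs of the 10 genes. The sequence of mmu-miR-1a-3p itself is not printed here, and the mature sequence below is that of mmu-miR-206-3p, which shares its seed, from RefSeq (GRCm38.p6 chr1:20679055-20679076, plus strand), with its seed, bases 2 to 8, in capitals. Each mouse 3′ UTR stretch holds 30 bases of the transcript strand, with the match in capitals and the position of its 6-base core counted from the first base of the 3′ UTR.
mmu-miR-206-3p: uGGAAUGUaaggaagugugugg
Gja1, 8mer, bases 478 to 483: tacatccccgctaaaaaACATTCCAgtgtt
Gja1, 8mer, bases 1602 to 1607: agaaactaatttgtttgACATTCCAtgtta
Twf1, 8mer, bases 1644 to 1649: tacatcgaagtcaatgcACATTCCAgaata
Tmsb4x, 8mer, bases 30 to 35: ccgccaatatgcactgtACATTCCAcgagc
Cdk9, 7mer-m8, bases 429 to 434: ttttgttaagtttagagACATTCCtggacg
Tagln2, 7mer-m8, bases 70 to 75: tatatatgttttagcagACATTCCctgaga
G6pdx, 7mer-m8, bases 211 to 216: caccagtaaacccagctACATTCCtcaaat
G6pdx, 7mer-m8, bases 528 to 533: agcctcagtgctactagACATTCCtcctca
Cnn3, 7mer-m8, bases 133 to 138: taaagtatgccttatgtACATTCCtttctc

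The motifs searched were ACATTCCA (8mer), ACATTCC (7mer-m8), CATTCCA (7mer-A1) and CATTCC (6mer), on the transcript strand alone, with each match counted once under the longest motif that it fills. Of the 9 genes with a 3′ UTR in the transcript models, 7 held an 8mer or a 7mer-m8 (77.8%), against 8.2% of 19251 genes with an annotated 3′ UTR. Among the 13110 of these that were tested in MOV mimic against MOV control, the share was 9.63%. The stronger 8mer was present in Gja1, Twf1 and Tmsb4x (33.3% of the 9, against 3.14% of all genes and 3.71% of the genes tested). Twf1 held a further 7mer-A1 at bases 71 to 76, and Tagln2 held 2 further 6mers. The 590 bases of the Hdac4 3′ UTR and the 653 bases of the Pgd 3′ UTR held none of these letters, and no 3′ UTR was annotated for Slc8a1 in these models. Each gene was read from 1 model of an early GENCODE release, and other transcripts or releases, which were not analysed here, may hold longer 3′ UTRs. In the coding sequences there were 3 6mers in Pgd, 1 in Slc8a1 (bases 1704 to 1709) and 1 in Twf1 (bases 727 to 732). The genes were listed as targets for reasons that may include these very sites, so that the shares are a description of the list.

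**Figure D1:**
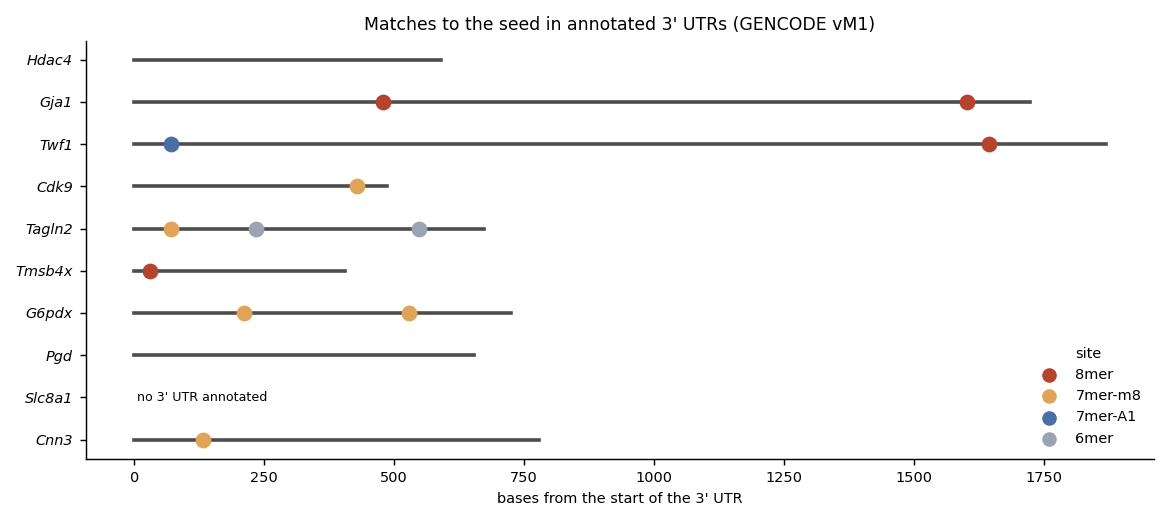
Position of each match to the seed (points, coloured by site type) along the annotated 3′ UTR used for each gene (lines, drawn to scale), in bases from the start of the 3′ UTR. Gja1, Twf1 and Tmsb4x hold an 8mer, Hdac4 and Pgd hold no match, and no 3′ UTR is annotated for Slc8a1.

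Levels are given below as TMM CPM, counts scaled to the size of the library after a trimmed mean of M values correction, and differences as log2 fold changes (log2FC) with their SE from the quasi-likelihood test of edgeR, with p-values adjusted over all genes tested in a comparison. For MOV mimic against MOV control, 0 of 10 genes had an adjusted p under 0.05, and 0 of 15220 genes in all (0%). At an unadjusted p under 0.05 the counts were 0 of 10 and 641 of 15220 (4.21%). DESeq2 also called 0 of the 10, with 3 calls among all genes (0.0197%), Snord91a, Entpd4 and Ypel2, named here after their values were seen. These fits held no block for the replicate number. With that block DESeq2 called 0 of the 10 and 127 genes in all (0.834%). edgeR with the block called no gene, with 2 of the 10 and 1100 of 15220 genes at an unadjusted p under 0.05. For sham mimic against sham control, the test gave 0 of 10 and 0 of 14746 (0%), with 0 of 10 and 254 (1.72%) at an unadjusted p under 0.05, and DESeq2 called no gene. The mimic and control groups of each of the 10 genes overlapped in both surgeries, as they did for all but 0.342% (higher) and 0.394% (lower) of genes in MOV and 0.142% and 0.224% in sham.

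**Figure D2:**
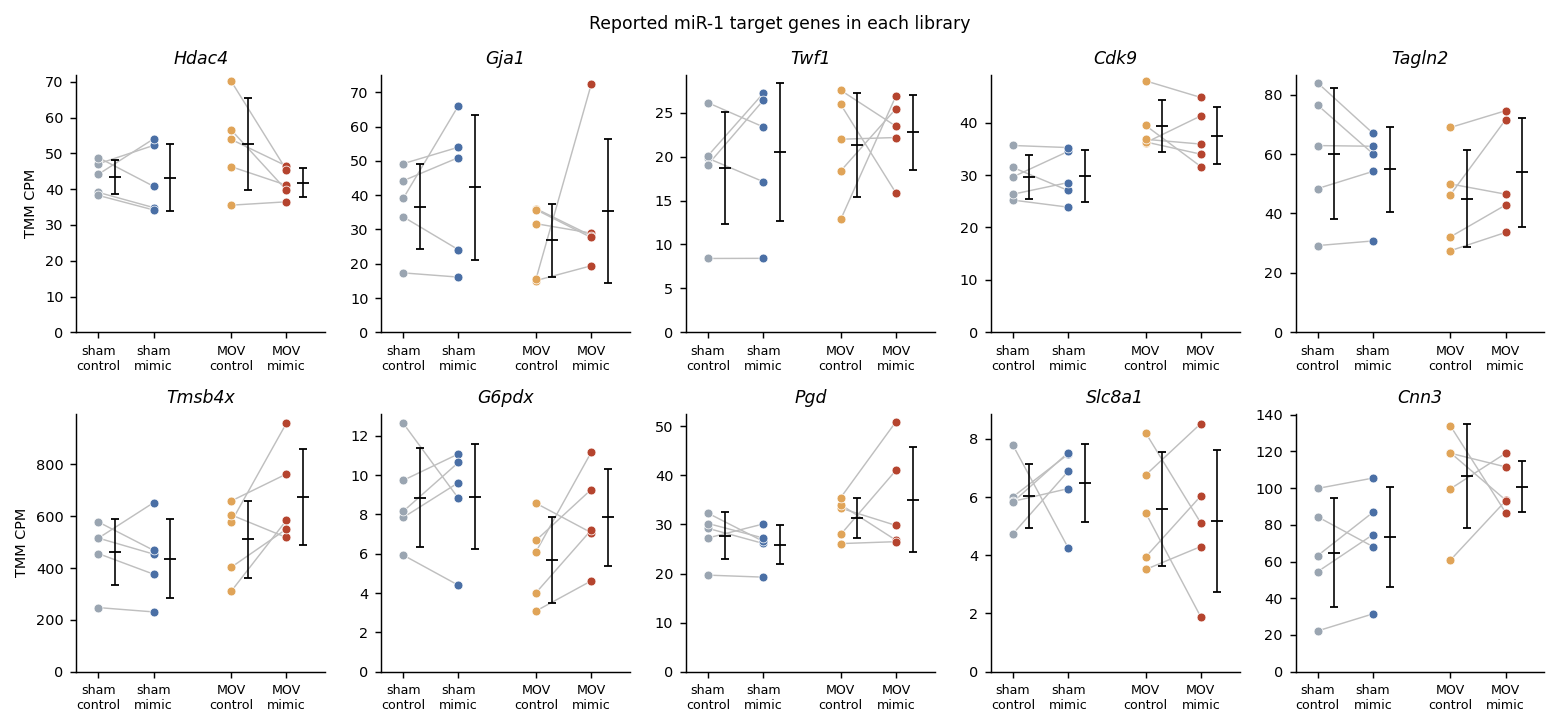
TMM CPM of each gene in each of the 20 libraries (points), with lines between the control and mimic libraries of equal replicate number and the mean ± SD of 5 libraries in black. The groups overlap for every gene except Cdk9, where the 5 MOV control libraries lie above the 5 sham control libraries.

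Hdac4, a class IIa histone deacetylase that binds MEF2 factors and represses their target genes (chr1:91928779-92195702 in GRCm38.p6), had the lowest log2FC of the 10 genes in MOV mimic against MOV control. In MOV control it stood at 53.9, 35.5, 46.3, 70.2 and 56.6 CPM in replicates 1 to 5, and in MOV mimic at 46.5, 36.5, 41.1, 45.4 and 39.7 CPM. All 5 mimic libraries fell inside the range of the control libraries, and 3 of the controls lay above every mimic library. In the same comparison 7 of 8 muscle fibre markers had a log2FC below 0 (median -0.25), as did 4 of 5 regenerating fibre and satellite cell markers (median -0.39), with 0 of either at an unadjusted p under 0.05, and their part in the Hdac4 values was not tested. For Hdac4 the log2FC was -0.32 (SE 0.17, 95% interval -0.68 to 0.04, edgeR unadjusted p = 0.0756, adjusted p = 0.999), and the level was lower with the mimic in 4 of 5 pairs of equal number. In sham control the values were 47.1, 44.1, 39.1, 48.8 and 38.3 CPM, and in sham mimic 52.2, 54.0, 34.8, 40.8 and 34.2 CPM. The sham means of 43.5 ± 4.70 and 43.2 ± 9.44 CPM (SD, n = 5) were close (log2FC -0.01, SE 0.15, 95% interval -0.35 to 0.32), and the sign turned, to values from 0.00 to 0.07, without sham control replicate 1, 2 or 4 or sham mimic replicate 3, 4 or 5. MOV control against sham control gave a log2FC of 0.28 (SE 0.16, edgeR adjusted p = 0.389), and MOV mimic against sham mimic gave -0.04 (SE 0.16, edgeR adjusted p = 0.940), which was 0.05 without sham mimic replicate 1 or 2 and 0.01 without MOV mimic replicate 2. The test of whether the mimic difference itself differed between surgeries gave -0.32 (SE 0.24, edgeR adjusted p = 1.00). Without MOV numbers 4 and 5, a choice made after the values were seen, the difference with the mimic was -0.14. Hdac4 overlaps the annotated gene LOC108167659, and the strand setting of the counting is not given in the sources used here.

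Cdk9, the kinase subunit of P-TEFb, which phosphorylates RNA polymerase II for productive elongation (chr2:32705782-32712784), had the lowest unadjusted p of the 10 genes in MOV control against sham control. It stood at 25.2, 29.6, 35.6, 31.5 and 26.3 CPM in sham control, and at 48.0, 36.2, 36.3, 39.5 and 36.8 CPM in MOV control. The highest sham control library was below the lowest MOV control library, and Cdk9 was the only one of the 10 genes whose groups did not overlap in this comparison, in which 2.3% of all genes lay wholly higher and 2.52% wholly lower after MOV. The log2FC was 0.42 (SE 0.13, 95% interval 0.13 to 0.72, edgeR unadjusted p = 0.00804, adjusted p = 0.131), and DESeq2 gave an adjusted p of 0.0699. Sham mimic libraries had 23.9, 34.5, 35.2, 27.1 and 28.6 CPM, and MOV mimic libraries 44.8, 41.3, 34.0, 31.6 and 35.9 CPM. These groups overlapped, with a log2FC of 0.34 (SE 0.14, 95% interval 0.03 to 0.65, edgeR unadjusted p = 0.0328, adjusted p = 0.341). Between virus groups Cdk9 had the narrowest intervals of the 10 genes: the log2FC of mimic against control was -0.07 after MOV (SE 0.14, 95% interval -0.37 to 0.24) and 0.00 after sham (SE 0.14, 95% interval -0.29 to 0.30). It was lower with the mimic in 4 of 5 MOV pairs, by at most 0.32 on the log2 scale, and without MOV control replicate 1, its highest library, the log2FC was 0.02. The sham value was -0.04 without sham control replicate 1 or 5 or sham mimic replicate 2, and -0.05 without sham mimic replicate 3. Without sham number 1 and MOV numbers 4 and 5 the difference between the control groups was 0.40 (edgeR adjusted p = 0.180).

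Tmsb4x encodes thymosin beta 4, which holds actin monomers (chrX:167207093-167213479), and its 8mer lies close to the stop codon. In MOV control it stood at 658, 577, 605, 309.6 and 403 CPM, and in MOV mimic at 763, 958, 518, 584 and 550.1 CPM. The highest libraries were MOV mimic replicates 1 and 2, while MOV control replicates 4 and 5 lay below all 5 mimic libraries. The log2FC was 0.40 (SE 0.24, 95% interval -0.12 to 0.91, edgeR unadjusted p = 0.120, adjusted p = 0.999), with a higher level in 4 of 5 pairs. In the same comparison, 9 of the 11 leukocyte markers tested had a log2FC above 0 (median 0.48), with Ptprc, the pan-leukocyte CD45, at 1.09 (edgeR unadjusted p = 0.0148, adjusted p = 0.999) and the myeloid integrin gene Itgam at 1.18 (edgeR unadjusted p = 0.0146, adjusted p = 0.999). Both were named after their values were seen, and they were 2 of the 11 at an unadjusted p under 0.05, where 4.21% of all genes were. With the replicate block 5 of the 11 had such a p in edgeR and 7 in DESeq2, as had 1100 and 1341 of all 15220 genes. edgeR called none of the 11, and DESeq2 with the replicate block called Ptprc alone (adjusted p = 0.00907) among 127 of 15220 genes (0.834%). Their summed level ran from 234 to 782 CPM in MOV control and from 452 to 900.1 CPM in MOV mimic, and its part in the Tmsb4x values was not tested. In sham control the values were 247, 456, 515, 515 and 578 CPM, and in sham mimic 231, 376, 652, 454 and 468 CPM. Both sham libraries numbered 1 were the lowest of their groups, and the log2FC of -0.09 (SE 0.26, 95% interval -0.66 to 0.49) came with a lower level in 4 of 5 pairs, but was 0.07 without sham mimic replicate 1. The difference between the 2 surgeries in the response to the mimic was 0.48 (SE 0.37, edgeR adjusted p = 1.00). MOV mimic was above sham mimic by a log2FC of 0.64 (SE 0.25, 95% interval 0.09 to 1.19, edgeR unadjusted p = 0.0250, adjusted p = 0.323), and MOV control against sham control gave 0.17 (SE 0.25, edgeR adjusted p = 0.762). Between the mimic groups, 7 of 10 leukocyte (median 0.32), 1 of 8 muscle fibre (median -0.41) and 0 of 6 endothelial markers (median -0.51) had a log2FC above 0. At an unadjusted p under 0.05 by edgeR were 3, 2 and 5 of these, where 13.4% of all genes were. DESeq2 called 2 of the endothelial markers, both lower. The part of these markers in the Tmsb4x values was not tested. How reads that fit several loci were counted is not given in the sources used here, and processed copies of this gene could share its reads.

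Twf1, twinfilin 1, binds actin monomers and caps filaments (chr15:94577948-94589884). Sham control libraries had 8.41, 19.8, 20.1, 26.1 and 19.1 CPM, and sham mimic libraries 8.42, 17.1, 27.2, 23.4 and 26.4 CPM. The libraries numbered 1 were the lowest of both sham groups. In MOV control it stood at 27.5, 25.9, 22.0, 12.9 and 18.4 CPM, and in MOV mimic at 23.4, 15.8, 22.2, 26.9 and 25.4 CPM. Pair 4 was higher with the mimic by 1.06 on the log2 scale and pair 2 was lower by 0.71, so that the log2FC of 0.09 (SE 0.22, 95% interval -0.39 to 0.56, edgeR adjusted p = 0.999) joined pairs that moved in opposite directions. It was -0.05 without MOV control replicate 4 and -0.31 without MOV numbers 4 and 5. Sham mimic against sham control gave 0.13 (SE 0.32, 95% interval -0.57 to 0.83), or -0.05 without sham control replicate 1. For MOV against sham the log2FC was 0.21 in control (SE 0.27) and 0.16 in mimic (SE 0.27), with edgeR adjusted p of 0.713 and 0.826, and the value in mimic was -0.03 without sham mimic replicate 1.

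Tagln2, transgelin 2, is an actin-binding protein of the calponin family (chr1:172500246-172507375). It stood at 49.9, 46.3, 68.9, 32.1 and 27.5 CPM in MOV control, and at 46.5, 71.6, 74.6, 42.9 and 33.6 CPM in MOV mimic. The groups overlapped over most of their range, with a higher level in 4 of 5 pairs and a log2FC of 0.25 (SE 0.27, 95% interval -0.34 to 0.85, edgeR adjusted p = 0.999), which was 0.11 without MOV mimic replicate 3 and 0.46 without MOV control replicate 3. Sham control libraries had 29.2, 48.4, 76.4, 83.9 and 62.8 CPM, and sham mimic libraries 30.8, 54.2, 60.1, 67.0 and 62.6 CPM. The libraries numbered 1 were again the lowest, and the log2FC was -0.14 (SE 0.27, 95% interval -0.72 to 0.45), or 0.03 without sham control replicate 4 and 0.01 without sham mimic replicate 1. MOV control was below sham control by a log2FC of -0.39 (SE 0.29, edgeR adjusted p = 0.508), and MOV mimic differed from sham mimic by -0.02 (SE 0.24, edgeR adjusted p = 0.983), a value that was between 0.01 and 0.11 without sham mimic replicate 3, 4 or 5 or MOV mimic replicate 1, 4 or 5.

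Cnn3, calponin 3, binds actin and is abundant in myoblasts, in smooth muscle and in non-muscle cells (chr3:121426541-121458205). In sham control it stood at 22.2, 54.5, 99.8, 84.3 and 63.2 CPM, and in MOV control at 134, 119, 119, 99.6 and 60.8 CPM. Sham control replicate 1 was the lowest library of all, and 3 of the 5 MOV control libraries lay above every sham control library. The log2FC was 0.74 (SE 0.33, 95% interval 0.03 to 1.45, edgeR unadjusted p = 0.0413, adjusted p = 0.252), the highest of the 10 genes between these groups, and it was 0.73 (edgeR adjusted p = 0.0880) without sham number 1 and MOV numbers 4 and 5. Between the same control groups, all 5 regenerating fibre and satellite cell markers tested had a log2FC above 0 (median 1.18, 2 at an unadjusted p under 0.05), and all 6 endothelial markers were below 0 (median -0.43, 3 at an unadjusted p under 0.05), where 18.2% of all genes had such a p. The smooth muscle and pericyte markers split, with 3 of 6 above 0 (median 0.10, 2 at an unadjusted p under 0.05). Above 0 were also 4 of 8 muscle fibre, 3 of 8 fibroblast and 2 of 10 leukocyte markers. As fitted, edgeR called none of these markers, whereas edgeR with no filter and DESeq2 each called the satellite cell gene Pax7 (adjusted p = 0.0382 and 0.00369) and the endothelial receptor gene Kdr (adjusted p = 0.0300 and 0.00804), and DESeq2 with the replicate block called both as well as Myog and Myh3. Sham and MOV libraries came from different mice, so that this block joined unrelated animals and its calls rest on no pairing. Lower, and called by edgeR with no filter and by DESeq2, were Myh11 (adjusted p = 0.0175 and 0.00365) and Rgs5 (adjusted p = 0.0255 and 0.00340) of smooth muscle and pericytes. So was the fibre gene Myh4 (edgeR with no filter adjusted p = 0.0109, DESeq2 adjusted p = 2.46e-06). Over all genes the fits called 1.37% (no filter), 6.1% (DESeq2) and 4.82% (DESeq2 with the block). The marker genes named here were picked with their values in view. The summed level of the regenerating fibre and satellite cell markers ran from 56.7 to 659 CPM in sham control and from 280 to 1299 CPM in MOV control. The part of any of these markers in the Cnn3 values was not tested. Sham mimic libraries had 31.5, 74.7, 105, 68.1 and 86.8 CPM, and MOV mimic libraries 86.6, 112, 93.5, 119 and 93.1 CPM. These overlapped, with a log2FC of 0.47 (SE 0.24, edgeR unadjusted p = 0.0740, adjusted p = 0.418), which was 0.28 without sham mimic replicate 1. Mimic against control gave -0.08 after MOV (SE 0.20, 95% interval -0.51 to 0.35) and 0.17 after sham (SE 0.36, 95% interval -0.62 to 0.96). The value after MOV was 0.02 without MOV control replicate 1 and -0.37 without MOV numbers 4 and 5, and the value after sham was -0.05 without sham control replicate 1.

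G6pdx, glucose-6-phosphate dehydrogenase, opens the oxidative branch of the pentose phosphate pathway and supplies NADPH (chrX:74409483-74428880). It stood at 6.67, 6.09, 8.57, 3.08 and 4.01 CPM in MOV control, and at 9.26, 11.2, 7.07, 4.62 and 7.21 CPM in MOV mimic. MOV control replicates 4 and 5 were the 2 lowest libraries of all 20, and the gene was higher with the mimic in 4 of 5 pairs. The log2FC of 0.46 was the highest of the 10 genes in this comparison (SE 0.32, 95% interval -0.24 to 1.16, edgeR unadjusted p = 0.180, adjusted p = 0.999). Sham control libraries had 5.93, 7.85, 9.73, 12.6 and 8.15 CPM, and sham mimic libraries 4.39, 9.62, 11.1, 8.81 and 10.7 CPM. The sham groups overlapped over most of their range, and their log2FC was 0.00 (SE 0.26, 95% interval -0.56 to 0.56), and it lay between -0.11 and -0.01 without sham control replicate 1, 2 or 5 or sham mimic replicate 2, 3 or 5. MOV control against sham control gave -0.61 (SE 0.29, 95% interval -1.25 to 0.02, edgeR unadjusted p = 0.0581, adjusted p = 0.293), and MOV mimic against sham mimic -0.16 (SE 0.28, edgeR adjusted p = 0.836), or -0.03 without MOV mimic replicate 4. G6pdx overlaps Ikbkg in the annotation, and reads from the shared stretch could have been counted for either gene or for none.

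Pgd, 6-phosphogluconate dehydrogenase, is the next NADPH-producing enzyme of that branch (chr4:149149991-149166705). In MOV control it stood at 33.3, 28.0, 34.0, 35.5 and 26.1 CPM, and in MOV mimic at 29.8, 41.0, 26.8, 50.9 and 26.5 CPM. Mimic replicates 2 and 4 were the highest of all 20 libraries, whereas the other 3 lay inside the control range. The log2FC was 0.16 (SE 0.20, 95% interval -0.26 to 0.58, edgeR adjusted p = 0.999), and it was -0.02 without MOV mimic replicate 4, the library with the fewest detected genes. Sham control libraries had 19.7, 29.2, 32.3, 30.2 and 27.2 CPM, and sham mimic libraries 19.3, 26.1, 26.6, 27.2 and 30.1 CPM. The level was lower with the mimic in 4 of 5 sham pairs, with a log2FC of -0.10 (SE 0.15, 95% interval -0.43 to 0.22). MOV mimic was above sham mimic by 0.45 (SE 0.20, 95% interval 0.02 to 0.88, edgeR unadjusted p = 0.0409, adjusted p = 0.358), or by 0.27 without MOV mimic replicate 4, and MOV control was above sham control by 0.20 (SE 0.15, edgeR adjusted p = 0.515).

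Gja1, connexin 43, forms gap junctions in heart, fibroblasts, vessels and myoblasts (chr10:56377300-56390419), and its 3′ UTR holds 2 of the 8mers shown. In MOV control it stood at 31.7, 36.1, 35.8, 15.1 and 15.5 CPM, and in MOV mimic at 28.9, 28.2, 27.7, 19.4 and 72.3 CPM. A single library, MOV mimic replicate 5, set the sign: pair 5 was higher with the mimic by 2.22 on the log2 scale, pairs 1 to 3 were lower, and the log2FC of 0.38 (SE 0.36, 95% interval -0.39 to 1.16, edgeR adjusted p = 0.999) was -0.05 without that library. Without MOV numbers 4 and 5 it was -0.30 (edgeR adjusted p = 0.960). Sham control libraries had 17.3, 33.7, 44.2, 49.2 and 39.0 CPM, and sham mimic libraries 16.1, 24.1, 51.0, 54.0 and 66.1 CPM. The libraries numbered 1 were the lowest in both, and the log2FC of 0.20 (SE 0.36, 95% interval -0.59 to 0.99) became -0.01 without sham mimic replicate 5. After MOV the gene was lower than after sham by a log2FC of -0.42 in control (SE 0.31, edgeR adjusted p = 0.500) and -0.25 in mimic (SE 0.40, edgeR adjusted p = 0.824), and the latter was -0.03 without sham mimic replicate 5, -0.69 without MOV mimic replicate 5 and -0.78 (edgeR adjusted p = 0.217) without sham number 1 and MOV numbers 4 and 5.

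Slc8a1, the sodium-calcium exchanger NCX1, extrudes calcium across the plasma membrane and is best known in heart muscle (chr17:81373105-81738387). In MOV control it stood at 3.51, 8.21, 6.75, 5.46 and 3.94 CPM, and in MOV mimic at 4.30, 5.11, 8.53, 1.88 and 6.04 CPM. The pairs scattered from -1.49 to 0.60 on the log2 scale, and the log2FC was -0.11 (SE 0.38, 95% interval -0.94 to 0.71, edgeR adjusted p = 0.999), the widest interval of the 10 genes. It was 0.07 without MOV control replicate 2 and 0.09 without MOV mimic replicate 4, which held the lowest value and the fewest detected genes. Sham control libraries had 6.01, 7.78, 5.85, 4.73 and 5.82 CPM, and sham mimic libraries 7.47, 4.26, 6.29, 6.88 and 7.52 CPM. The level was higher with the mimic in 4 of 5 sham pairs, with a log2FC of 0.10 (SE 0.20, 95% interval -0.34 to 0.54). MOV against sham gave -0.09 in control (SE 0.26, edgeR adjusted p = 0.880), which was 0.03 without MOV control replicate 1, 0.01 without MOV control replicate 5 and 0.00 without sham control replicate 2, and -0.32 in mimic (SE 0.34, edgeR adjusted p = 0.709). The latter ran from -0.57 without MOV mimic replicate 3 to -0.11 without MOV mimic replicate 4.

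**Figure D3:**
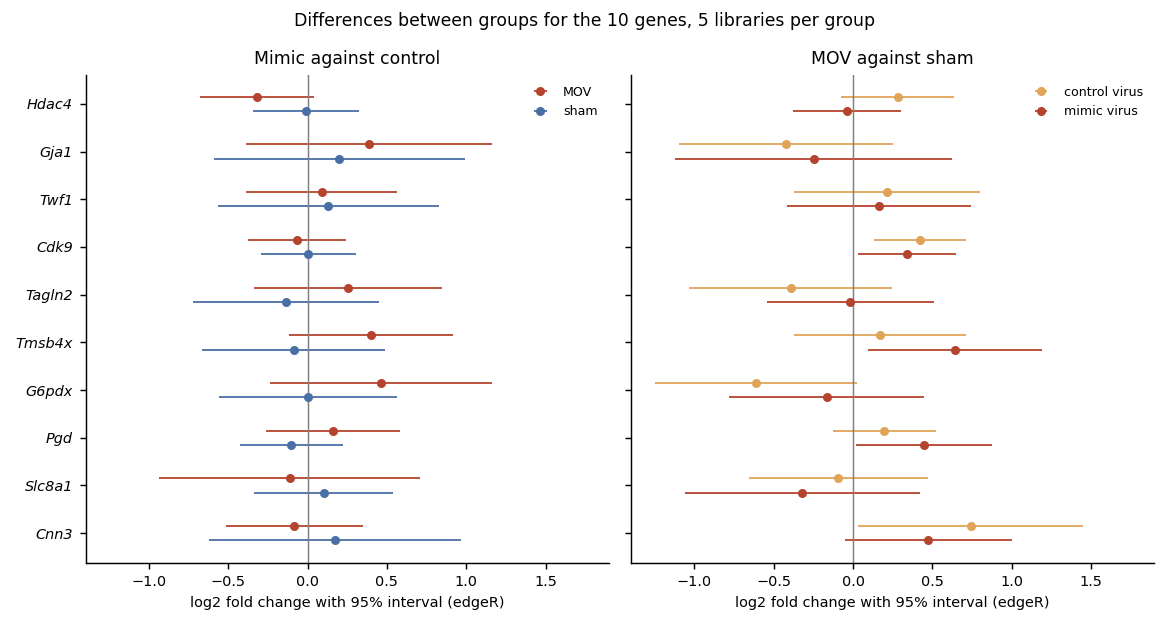
Log2FC with 95% intervals from edgeR for the 10 genes, mimic against control (left, MOV and sham) and MOV against sham (right, control and mimic virus), 5 libraries per group. All intervals of mimic against control cross 0, and of MOV against sham those of Cdk9 in both viruses, Cnn3 in control, and Tmsb4x and Pgd in mimic do not, before adjustment over all genes.

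Read as a list, the 10 genes had a median log2FC of 0.12 in MOV mimic against MOV control, where all genes had a median of -0.01. The sign of that median did not hold: it was -0.02 with voom, -0.0049 without MOV mimic replicate 5, -0.04 without both libraries numbered 5 and -0.04 without MOV numbers 4 and 5, and it reached 0.21 without both libraries numbered 1. Without 1 library, or with voom, the number of the 10 below 0 ran from 2 (without MOV control replicate 1) to 6 (with voom). In sham the median was 0.00 for the 10 and 0.00 for all genes, and it ran from -0.05 without sham control replicate 1 to 0.07 without sham control replicate 3. In sham 7 of the 10 were below 0 without sham control replicate 1, and 2 without sham control replicate 4 or sham mimic replicate 1. The pairs of equal number did not share a direction: the mimic library was lower for 7, 4, 7, 3 and 2 of the 10 genes in MOV pairs 1 to 5, and for 5, 5, 4, 8 and 3 in sham pairs 1 to 5. No gene of the list was lower, and none was higher, in all 5 pairs of either surgery, while 4.18% and 4.36% of all genes were so in MOV and 3.29% and 2.39% in sham. Hdac4 and Cdk9 were lower in 4 of 5 MOV pairs, and 21.4% of all genes were lower in 4 or 5. Tagln2, Tmsb4x and G6pdx were higher in 4 of 5, as 20.5% of all genes were in 4 or 5. In sham, Tmsb4x and Pgd were lower in 4 of 5 pairs, against 17.2% of all genes in 4 or 5, and Slc8a1 and Cnn3 were higher in 4 of 5, against 17.4%. The mimic response differed between the surgeries for 0 of 10 and 0 of 16166 genes (0%) by the interaction test of edgeR, with 0 of 10 and 426 genes (2.64%) at an unadjusted p under 0.05, and DESeq2 called 0 of the 10 and 1 gene in all (0.00619%), Snord91a.

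**Figure D4:**
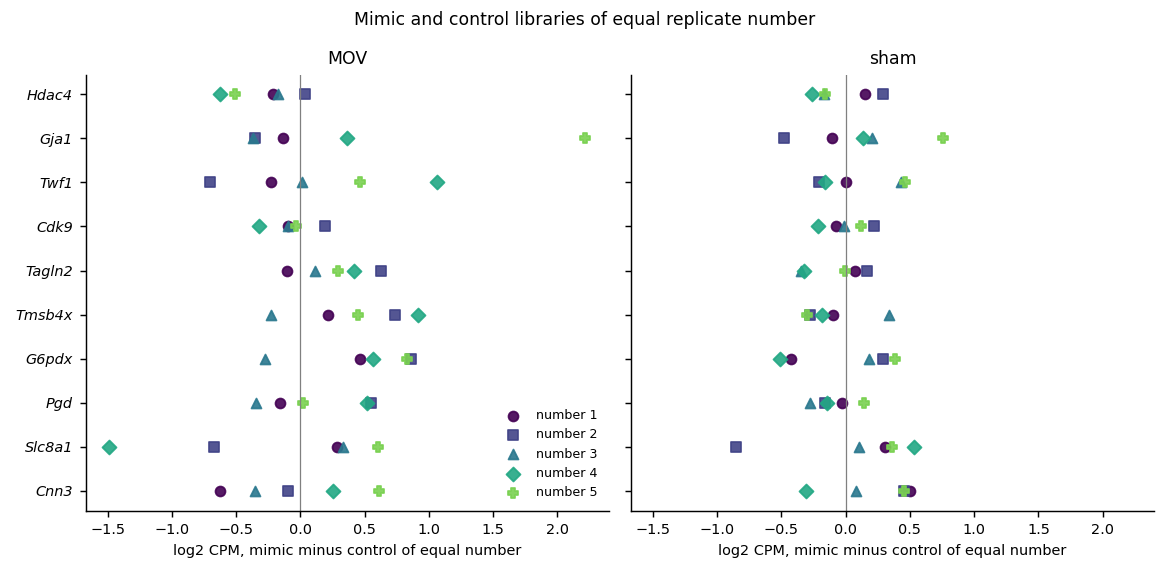
Difference in log2 CPM between the mimic and the control library of equal replicate number, 1 point for each of 5 numbers and each gene, in MOV (left) and sham (right). The points of every gene lie on both sides of 0, and Gja1 in MOV number 5 stands out at 2.22.

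By surgery, 0 of 10 genes passed in MOV control against sham control, where edgeR called 1 of 14974 genes (0.00668%), Nos1, named here after its value was seen. At an unadjusted p under 0.05 there were 2 of the 10, Cdk9 and Cnn3, and 2726 genes (18.2%). DESeq2 called 0 of the 10 and 913 genes in all (6.1%). The edgeR count over all genes rested on single libraries, with 426 DEGs without sham control replicate 3, 318 without MOV control replicate 5, 6 without MOV control replicate 3 and 0 without sham control replicate 2, 4 or 5 or MOV control replicate 1 or 2, and none of the 10 genes was among them. MOV mimic against sham mimic gave 0 of 10 and 0 of 14918 (0%), with 3 of the 10, Cdk9, Tmsb4x and Pgd, and 1997 genes (13.4%) at an unadjusted p under 0.05, and DESeq2 called 0 of the 10 and 221 genes (1.48%). Without MOV mimic replicate 5, edgeR called 0 of the 10 and 101 genes. In that comparison none of the 10 was free of overlap, against 1.01% of genes higher and 1.74% lower. The median of the 10 was 0.18 between the control groups, with 0.04 for all genes, and 0.07 between the mimic groups, with 0.02 for all genes. The former was 0.02 without sham control replicate 1, 0.08 without MOV control replicate 1 and 0.25 without MOV control replicate 5, and the latter ran from 0.01 without sham mimic replicate 1 to 0.15 without sham mimic replicate 5. Ordered by mean level over the 4 groups, 28 of 30 neighbouring groups of the 10 genes lay closer than the larger of their SDs. The exceptions were sham mimic and MOV mimic for Cdk9 (29.8 ± 4.90 against 37.5 ± 5.41 CPM, SD, n = 5) and for Cnn3 (73.3 ± 27.4 against 101 ± 13.8 CPM).

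Several of the 10 genes varied together between libraries of the same group. Correlations of their deviations from the group means reached 0.84 for G6pdx with Tmsb4x, 0.80 for Cnn3 with Twf1 and 0.79 for G6pdx with Tagln2 over 20 libraries. Hdac4 ran the other way, with -0.68 against Gja1 and -0.63 against Tmsb4x. Sham number 1 in both viruses was the lowest library of its group for 8 of the 10 genes, Gja1, Twf1, Cdk9, Tagln2, Tmsb4x, G6pdx, Pgd and Cnn3. In the same 2 libraries the summed level of 8 fibroblast markers was 1194 and 1733 CPM, against 5547 to 11206 CPM in the other sham libraries, and 11 leukocyte markers summed to 219.9 and 220.5 CPM, against 384 to 962 CPM. Their muscle fibre marker sums, 174141 and 170470 CPM, were above the 109916 to 148540 CPM of the other sham libraries. MOV control replicates 4 and 5, the 2 lowest of that group for Gja1, Twf1, Tagln2, Tmsb4x, G6pdx and Cnn3, had fibroblast sums of 4979 and 3424 CPM against 11273 to 12620 CPM in the other 3, and leukocyte sums of 235 and 234 CPM against 598 to 782 CPM. The 8 muscle fibre markers summed to 140872 and 159633 CPM in these 2, above the 88951 to 102420 CPM of the other 3, and Hdac4 had its 2 highest values of the group there. The part of these marker levels in the differences above was not tested.

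**Figure D5:**
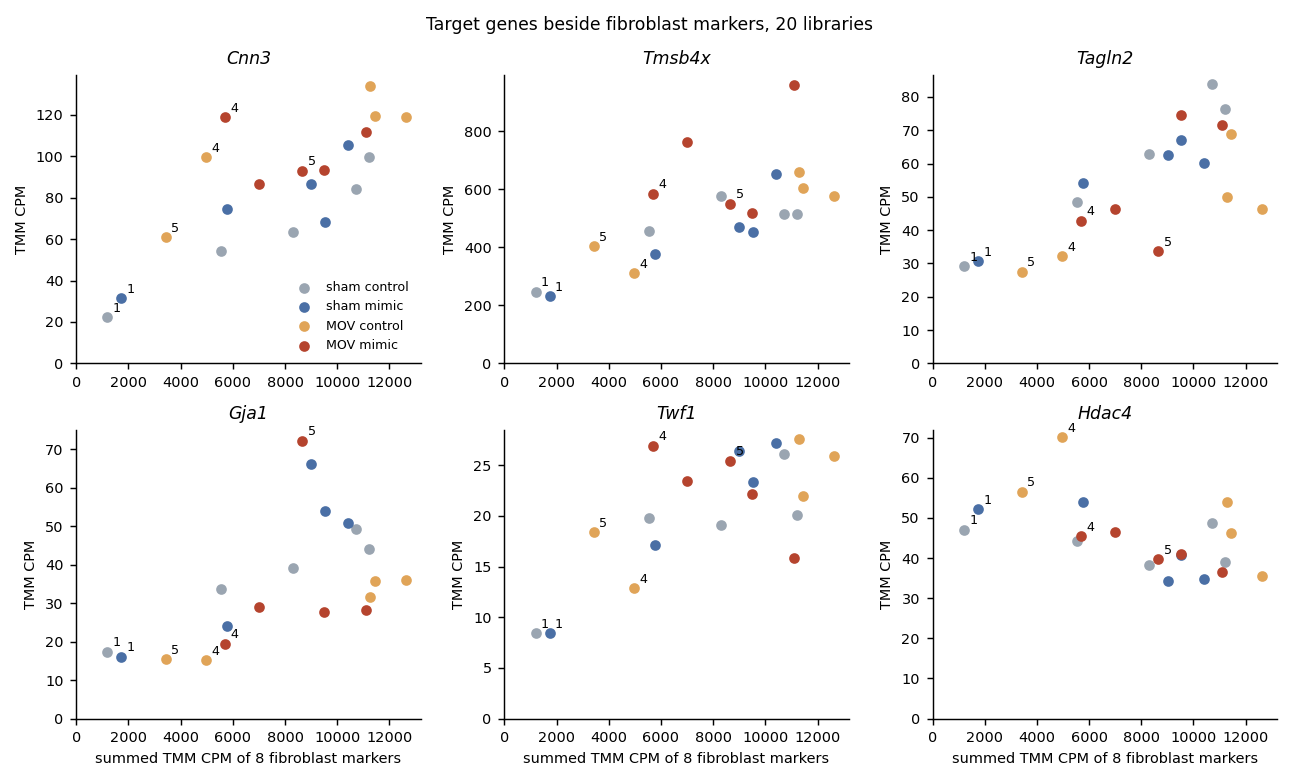
TMM CPM of 6 of the genes in each of 20 libraries against the summed TMM CPM of 8 fibroblast markers, coloured by group, with replicate numbers beside the libraries of sham number 1 and MOV numbers 4 and 5. Cnn3, Tmsb4x, Tagln2, Gja1 and Twf1 are low in the sham libraries numbered 1, where the marker sums are 1194 and 1733 CPM, while Hdac4 is not.

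Over the 20 libraries, and among 13947 genes, the pattern most like that of each gene was Napa for Hdac4 (Pearson r = 0.84), Cbx2 for Cdk9 (0.85), Cd52 for Tmsb4x (0.94), Csgalnact1 for Twf1 (0.90), Man2b1 for Tagln2 (0.94), Tubb2b for Cnn3 (0.96), Pde1a for G6pdx (0.86), BC037034 for Pgd (0.90) and Osmr for Gja1 (0.88). For Slc8a1 it was a gene without a symbol (0.83). Cd52 is a surface protein of leukocytes and Man2b1 a lysosomal mannosidase. These values share libraries and the cell makeup of each muscle.

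Genes with related roles were read from the same fits. Of 34 other reported targets of miR-1 or miR-206, 30 were tested in MOV and 29 in sham, 0 were called in either, and 0 had an unadjusted p under 0.05. Their median log2FC was 0.08 in MOV and 0.02 in sham. As fitted above, edgeR called no gene among 6 class IIa HDAC and MEF2 genes, 4 P-TEFb partners, 13 actin-binding neighbours, 6 pentose phosphate genes, 5 connexin and pannexin genes and 4 calcium exchange and pump genes, in any of the comparisons.

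For MOV control against sham control, edgeR called 0 of 30 other targets, with 7 at an unadjusted p under 0.05, where 18.2% of all genes were. DESeq2 called 3 of the 30 and 6.1% of all genes, so that neither count is a result about these targets as a list. The 3 were chosen for naming after their values were seen. Pax7, a transcription factor of satellite cells, was higher (8.51 against 3.80 CPM, DESeq2 log2FC 1.16, SE 0.29, adjusted p = 0.00369), while the vasoconstrictor peptide gene Edn1 (1.56 against 3.37 CPM, log2FC -1.12, SE 0.36, DESeq2 adjusted p = 0.0358) and the mitochondrial glycerol-phosphate dehydrogenase gene Gpd2 (80.9 against 142 CPM, log2FC -0.81, SE 0.22, DESeq2 adjusted p = 0.0102) were lower. Among the neighbours, the channel gene Panx1 was higher (log2FC 1.07, SE 0.28, DESeq2 adjusted p = 0.00583), and the exchanger Slc8a3 (log2FC -0.59, SE 0.19, DESeq2 adjusted p = 0.0305) and the calcium pump Atp2b1 (log2FC -0.45, SE 0.14, DESeq2 adjusted p = 0.0270) were lower. By edgeR, the adjusted p of these 6 genes lay between 0.0630 and 0.135. With no filter on low counts edgeR called 3 of them, Panx1 (adjusted p = 0.0238), Gpd2 (adjusted p = 0.0306) and Pax7 (adjusted p = 0.0382), and voom called Gpd2 (adjusted p = 0.0435).

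Of the miR-1 genes, Mir1a-1 and Mir1b could be followed, as counts on their precursor loci and not as mature miRNA. After MOV the mean level of Mir1a-1 was 4.94 CPM with the mimic and 5.41 CPM with the control virus, against 1.39 and 1.36 CPM after sham. Mir1b did not show this rise, with 2.42 and 2.21 CPM after MOV against 1.71 and 2.38 CPM after sham. For Mir1a-1, mimic against control gave a log2FC of -0.12 after MOV (SE 0.60, edgeR adjusted p = 0.999) and 0.02 after sham (SE 0.63, edgeR adjusted p = 1.00). For the same gene, MOV control against sham control gave 1.99 (SE 0.57, edgeR unadjusted p = 0.00396, adjusted p = 0.101), with a DESeq2 adjusted p of 0.0117. In that comparison DESeq2 called 1 of the 5 genes tested from the list of miR-1 and miR-206 genes, and 6.1% of all genes.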

How the data were processed

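RNA was sequenced from 20 plantaris muscles, 5 in each of 4 groups. The deposited values are raw counts for 54532 Ensembl genes, made by the authors, per the study's methods and processing notes, with FastQC 0.11.9, Cutadapt 4.4, Trim Galore 0.6.10, HISAT2 2.0.5 against GRCm38 and featureCounts 1.5.0-p3. How strand and multi-mapping reads were treated, and which annotation release was used, is not given in the sources used here. Libraries held 12036360 to 23056525 counts, and 32640 IDs matched a symbol. No 2 libraries of a group were copies. The study used 5 mice per surgery, each with a control and a mimic muscle, so that the muscles of a mimic comparison are not independent. Equal numbers are not stated to mark 1 mouse. The main test left the muscles unpaired, and its p-values measure the spread between muscles.

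Counts were tested with the quasi-likelihood test of edgeR 4.0.16 in R 4.3.3 (TMM, filterByExpr, two-sided, Benjamini-Hochberg over all genes tested, threshold 0.05) on the 10 libraries of a comparison, or on all 20 for the interaction. Log2 CPM of pairs used a prior count of 2. Alternatives were DESeq2 1.42.0, voom with quality weights in limma 3.58.1, DESeq2 size factors, no filter, at least 10 counts in total, a replicate block, all 20 libraries, and libraries left out. The edgeR, DESeq2 and voom fits, the block, the size factors, the fit of all 20 libraries and the interaction were run on simulated counts. In these counts 200 genes had changed, with the same dispersion for all genes and no mouse effect, so that they are no check of the pairing. The other filters and the left-out libraries were not simulated.

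Gene coordinates are from RefSeq (GRCm38.p6). Seed matches used GENCODE vM1 transcripts, taking for each gene the 3′ UTR of the transcript with the longest coding sequence among those with an annotated 3′ UTR, and the longest coding sequence of any transcript (another transcript for Gja1). Positions were counted from the first base of that region. That annotation is of another build and no genome coordinate was taken from it. Every member is named in each comparison. Genes of other lists are named where edgeR called them in MOV control against sham control, which gave none, and otherwise as stated. The members and lists were chosen with earlier results of these data known.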

Additional observations from a re-analysis of the deposited data

Results flagged for a closer look

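Of 40 groups of 5 libraries (10 genes in 4 groups), 2 held a library set apart from the other 4, where the gap to the nearest library, divided by the range of the group (Dixon's test), was above 0.71, and chance alone marks about 1 in 20 such groups. Gja1 in MOV mimic replicate 5 stood at 72.3 CPM, with the nearest library at 28.9 CPM (ratio 0.820). Cdk9 in MOV control replicate 1 stood at 48.0 CPM, with the nearest library at 39.5 CPM (ratio 0.721). What set these values apart was not tested.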

How the results depend on the processing

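None of the 10 genes was called in any of the 5 comparisons under 113 combinations of comparison and alternative. Of 1130 refitted log2FC values, 1048 kept their sign and 82 turned, all of values that had not passed the test.

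The number of DEGs over all genes depended on the tool. In MOV mimic against MOV control it was 0 with edgeR, 3 with DESeq2, 127 with DESeq2 and a replicate block and 1 with all 20 libraries in the fit. In MOV control against sham control it was 1 with edgeR, 913 with DESeq2, 294 with voom, 388 with no filter, 163 with at least 10 counts, 722 with DESeq2 and the block, 36 with all 20 libraries, and 33 without sham number 1 and MOV numbers 4 and 5, libraries left out after the values were seen. Leaving out 1 library gave 0 to 426 DEGs, with 426 without sham control replicate 3, 318 without MOV control replicate 5 and 6 without MOV control replicate 3. In MOV mimic against sham mimic the count was 0 with edgeR, 221 with DESeq2, 2 with voom, 1 with no filter, 116 with DESeq2 and the block, 3 with all 20 libraries and 1 without sham number 1 and MOV numbers 4 and 5, and leaving out 1 library gave 0 to 101, the latter without MOV mimic replicate 5. For the interaction DESeq2 gave 1 and DESeq2 with the block 5. The causes were not tested.

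Equal numbers did not meet the limit for a pairing, r over 0.1 in every pair. Deviations of equal-number libraries correlated at a mean of 0.23 in MOV (lowest 0.07, 3 of 5 best with their own number) and 0.30 in sham (lowest 0.01, 2 of 5). Between surgeries equal numbers belong to different mice, with a mean of -0.10 for the control groups and -0.11 for the mimic groups. The blocked counts of MOV against sham therefore rest on no pairing. With the replicate block edgeR gave 0 DEGs in MOV and in sham, and 0 of the 10 genes. In MOV mimic against MOV control the block gave Hdac4 -0.29 (edgeR unadjusted p = 0.0415, adjusted p = 0.685) and Tmsb4x 0.42 (edgeR unadjusted p = 0.0338, adjusted p = 0.657). These were 2 of the 10 genes at an unadjusted p under 0.05, where 1100 of 15220 genes were with the block and 641 without it. The block turned the log2FC of G6pdx in sham mimic against sham control to -0.012 in edgeR and -0.0029 in DESeq2, and that of Twf1 in the interaction to 0.016 in DESeq2.

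With voom, signs turned for Twf1 (-0.075) and Pgd (-0.014) in MOV mimic against MOV control, Cdk9 (-0.023) in sham mimic against sham control, Hdac4 (0.082) and Twf1 (-0.042) in MOV mimic against sham mimic, and Gja1 (-0.18) in the interaction. Without sham number 1 and MOV numbers 4 and 5 they turned for Gja1 (-0.30) and Twf1 (-0.31) in MOV mimic against MOV control, Slc8a1 (0.042) in MOV control against sham control, Hdac4 (0.024), Twf1 (-0.19) and Tagln2 (0.083) in MOV mimic against sham mimic, and Gja1 (-0.53) in the interaction.

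Leaving out 1 library, or both libraries of 1 number, turned the sign of 21 of 50 values. In MOV mimic against MOV control the log2FC ran from -0.19 to 0.59 for Gja1, -0.12 to 0.27 for Twf1, -0.14 to 0.019 for Cdk9, -0.019 to 0.28 for Pgd, -0.37 to 0.094 for Slc8a1 and -0.24 to 0.063 for Cnn3. In sham mimic against sham control it ran from -0.098 to 0.071 for Hdac4, -0.0096 to 0.40 for Gja1, -0.052 to 0.32 for Twf1, -0.049 to 0.094 for Cdk9, -0.31 to 0.027 for Tagln2, -0.27 to 0.068 for Tmsb4x, -0.11 to 0.18 for G6pdx and -0.045 to 0.40 for Cnn3. In MOV control against sham control it ran from -0.28 to 0.031 for Slc8a1. In MOV mimic against sham mimic it ran from -0.12 to 0.047 for Hdac4, -0.033 to 0.28 for Twf1 and -0.17 to 0.11 for Tagln2. The interaction ran from -0.25 to 0.38 for Gja1, -0.23 to 0.14 for Twf1 and -0.16 to 0.0031 for Cdk9. Of the other 29 values, 23 moved by over 1.5 times without turning. MOV mimic against MOV control ran from -0.43 to -0.20 for Hdac4, 0.11 to 0.46 for Tagln2, 0.24 to 0.55 for Tmsb4x and 0.30 to 0.70 for G6pdx, and MOV control against sham control from 0.15 to 0.39 for Hdac4, 0.015 to 0.29 for Tmsb4x, 0.034 to 0.36 for Twf1, 0.10 to 0.26 for Pgd, -0.60 to -0.27 for Gja1 and -0.61 to -0.25 for Tagln2. MOV mimic against sham mimic ran from 0.28 to 0.64 for Cnn3, -0.33 to -0.031 for G6pdx, -0.69 to -0.033 for Gja1, 0.27 to 0.53 for Pgd and -0.57 to -0.11 for Slc8a1, and sham mimic against sham control from -0.20 to -0.022 for Pgd and 0.0074 to 0.33 for Slc8a1. The interaction ran from -0.48 to -0.039 for Cnn3, 0.29 to 0.65 for G6pdx, -0.43 to -0.19 for Hdac4, 0.086 to 0.36 for Pgd, -0.49 to -0.0033 for Slc8a1 and 0.23 to 0.60 for Tagln2. With 5 libraries per group, the 95% intervals of mimic against control in MOV reached down to -0.94 (Slc8a1) and up to 1.16 (Gja1 and G6pdx), differences that these libraries could miss.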
